A study of Homo sapiens with 3 samples.

Results

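The cells described here are rare cells of a human pluripotent stem cell culture that carried RNA of the endoderm transcription factors SOX17 and FOXA2 and no detected RNA of the germ cell factor NANOS3. Members were chosen by their measured counts: a cell was taken with at least 1 UMI (unique molecular identifier, 1 counted RNA molecule) of SOX17, at least 1 UMI of FOXA2 and 0 UMIs of NANOS3. The rule found 86 cells, 19 at day 2 and 67 at day 3, among 15153 cells kept on those 2 days and 18830 kept in the whole series. They are called SOX17+ FOXA2+ cells below, and each day's members are compared with the other cells of the same library, 7873 at day 2 and 7194 at day 3.

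UCLA1 is an established line of human embryonic stem cells, and its single cells were profiled on the 10x Genomics droplet platform. The culture, which the labels name GiMO, lies under a layer of Geltrex, an extract of basement membrane, and was sampled after 1, 2 and 3 days. The title names a BMP4 response over time, TFAP2A-positive cells and the transition from epithelium to mesenchyme, and the labels do not say whether or when BMP4 was added. There were 3 libraries with 1 per day, so day, library and batch cannot be told apart, no test across samples was possible and no p-value is given.

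Definitive endoderm is the germ layer that forms the lining of the gut and the liver, pancreas and lungs. It arises from cells of the primitive streak under high NODAL signalling, and SOX17 and FOXA2 together mark it, while the surface receptor CXCR4 and the secreted protease inhibitor CST1 are used as further markers in human cell cultures. SOX17 alone does not mark endoderm, because human primordial germ cells and some endothelial cells also express it, and FOXA2 is also made by the node and by extraembryonic endoderm.

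SOX17 and FOXA2 were found together in a larger share of the cells that carried either gene at day 3 than at day 2. SOX17 UMIs were found in 37 of the 3677 cells kept at day 1, in 277 of 7892 at day 2 and in 459 of 7261 at day 3, and FOXA2 UMIs in 8, 70 and 90 cells. Of the cells with SOX17, 0% carried FOXA2 at day 1, 7.22% at day 2 and 15.7% at day 3. Of the cells with FOXA2, 28.6% carried SOX17 at day 2 and 80% at day 3. SOX17+ FOXA2+ cells without NANOS3 were 0 of 3677 at day 1, which allows a share of up to 0.0816%, then 0.241% of kept cells at day 2 (exact binomial 95% interval 0.145 to 0.376%) and 0.923% at day 3 (0.716 to 1.17%). The intervals of this section are 95% intervals and cover counting error only. A further 1 cell at day 2 and 5 cells at day 3 carried all 3 RNAs and were left out by the NANOS3 criterion.

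Members were of ordinary depth for their libraries. They held a median of 16988 UMIs at day 2 (11339 to 46179) and 21190 at day 3 (8252 to 67042), against 16007 and 19566.5 in the other cells. Mitochondrial UMIs had medians of 4.06% and 3.30% in members and 4.03% and 3.56% in the other cells. Barcodes shared between pairs of libraries numbered 9, 12 and 21. Levels are CPM, the UMIs of a gene summed over a class of cells and divided by all UMIs of that class, per 1000000, and a gene counts as past 2-fold when the ratio of its CPM values is at least 2 or at most 0.5, the higher class has at least 10 CPM and the interval of the ratio excludes 1.

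The values that chose the cells are these, given as a description. SOX17 UMIs per member ranged from 1 to 20 with a median of 6 at day 2, and from 1 to 40 with a median of 9 at day 3. FOXA2 UMIs ranged from 1 to 7 with a median of 1 at day 2, and from 1 to 11 with a median of 2 at day 3. FOXA2 rested on a single UMI in 14 of 19 and 20 of 67 members, so membership often turned on 1 molecule. Only 1 cell on each day had exactly 1 UMI of each gene, and requiring 2 UMIs of each left 4 cells at day 2 and 46 at day 3. Just outside the rule lay 238 and 258 cells with SOX17 and neither of the other genes, and 50 and 18 cells with FOXA2 and no SOX17. Of the day 3 cells with SOX17 only, 13.95% had a CST1 UMI and 17.4% a CXCR4 UMI. Among members with at least 2 UMIs of each gene these shares were 50% and 69.6%.

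Checked against CST1 and CXCR4, each marker was found in a large part of the members at day 3 and in few cells at day 2. CST1 (ENSG00000170373, chromosome 20, 23747562 to 23751268 on hg38) had UMIs in 31 of 67 members at day 3 and summed to 182 CPM, against 5.51 in the other cells. The ratio was 33.1 (28.9 to 37.7), and leaving out the cell that held most CST1 UMIs gave 29.4. At day 2 CST1 was found in 4 of 19 members, and 1 of these cells held 37 of the 45 UMIs. The day 2 ratio of 25.5 fell to 5.21 without that cell. CXCR4 (chromosome 2, 136114349 to 136119177), the receptor of the chemokine CXCL12, was found in 40 of 67 members at day 3 and was 11.5-fold higher (9.20 to 14.2), at 58.1 CPM against 5.06. At day 2 it had 4 UMIs in 3 of 19 members, a ratio of 34.6 with an interval of 9.04 to 95.2. Either marker was present in 6 of 19 members at day 2 and in 47 of 67 at day 3. Both were present in 1 of 19 and in 24 of 67. With every cell thinned to 5000 UMIs, CST1 was detected in 32.8% and CXCR4 in 23.9% of members at day 3, against 1.93% and 2.02% of the other cells that carried MESP1, a mesoderm gene, taken here as the background level of detection. CST1 has near-identical relatives in the cystatin family, and CST4 (10.8 CPM in members at day 3 and 0.587 in the other cells) could share its reads.

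A wider list of endoderm genes, which includes CST1 and CXCR4, had more genes higher than lower in members. Of a list of 23 definitive endoderm genes other than SOX17 and FOXA2, 17 reached 10 CPM in either class at day 2, and 13 of these were past 2-fold higher and 0 lower, with a median log2 ratio of 2.56. At day 3, 10 of 18 were higher and 1, LGR5, was lower, and the median was 1.40. Over all genes tested, 5.19% were past 2-fold higher and 3.06% lower at day 2, 5.93% and 3.32% at day 3, and the median log2 ratio was 0.00 and 0.01. A gene that reached 10 CPM only through members could be called higher but not lower. At day 2 this held for CXCR4, CST1, PRDM1, FLRT3, FGF17, KIT and LGR5, among others. At day 3 it held for CXCR4, CST1, FOXA3 and KIT, among others. The counts of lower genes in this list were thus in part set by the minimum level.

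Some transcription factors of the endoderm were past 2-fold higher on both days and others at day 2 only. PRDM1 (chromosome 6, 105993463 to 106109939), a transcriptional repressor of both endoderm and germ cells, was found in 17 of 19 members at day 2 and 60 of 67 at day 3. Its level in single members ran from 0 to 951 CPM with a median of 157 at day 2, and from 0 to 756 with a median of 151 at day 3. Summed over members it was 174 CPM against 6.12 at day 2 (28.5-fold, 21.7 to 36.9) and 163 against 13.2 at day 3 (12.4-fold, 10.9 to 14.1). OTX2, a homeobox factor of anterior endoderm and neural tissue, was 3.26-fold and 2.24-fold higher. FOXA3, a relative of FOXA2, was 1.25 times the other cells' level at day 2 and 4.44-fold higher at day 3 (33.0 against 7.41 CPM).

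GATA6, GATA4, LHX1 and GSC were past 2-fold at day 2 only. GATA6, which acts in both endoderm and mesoderm, stood at 236 CPM in members and 50.8 in the other cells at day 2, and at 382 and 256 at day 3. Both classes were thus higher at day 3 than at day 2, and the ratio went from 4.65 to 1.49. GATA4 went from a ratio of 7.29 (107 against 14.7 CPM) to 1.78 (207 against 116). LHX1, a LIM homeobox factor, went from 7.85 (217 against 27.6 CPM) to 0.88 (578 against 657 CPM). GSC, goosecoid, was 3.16-fold higher at day 2 and 1.12 times the other cells' level at day 3. EOMES, the T-box factor that acts upstream of SOX17, was past 2-fold on neither day, at 1.88 and 1.31 times. Whether these shifts follow from time or from the libraries cannot be told apart with 1 library per day. HHEX, an early factor of the anterior endoderm and liver, and FOXA1 had 0 UMIs in all 86 members. HHEX lay at 0.72 and 0.71 CPM in the other cells, so a difference was not detectable at this depth.

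**Figure D1:**
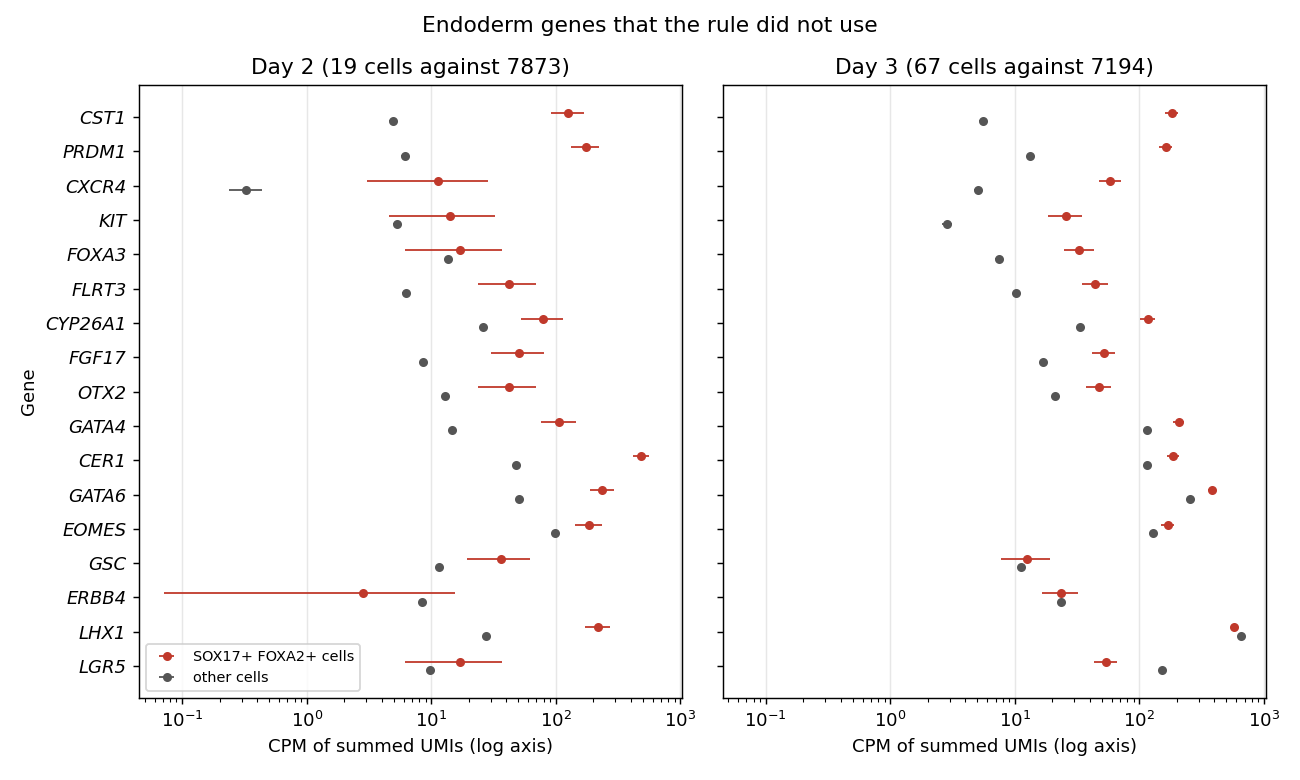
Levels of the definitive endoderm list, without SOX17 and FOXA2, in SOX17+ FOXA2+ cells (red) and in the other cells of the same library (grey) at day 2 and day 3, in CPM (log axis, exact Poisson 95% intervals). CST1, PRDM1 and CXCR4 stand apart on both days, whereas LHX1 and GSC do so at day 2 and not at day 3; genes under 10 CPM in both classes on both days, and 1 gene not reported here, are not drawn.

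Among the secreted proteins, CER1, an antagonist of NODAL, BMP and WNT ligands, was carried by a part of the members. CER1 (chromosome 9, 14719724 to 14722733) was found in 12 of 19 members at day 2 and in 30 of 67 at day 3, and single members reached 2968 and 3282 CPM. Its summed level was 484 CPM against 47.7 at day 2 (10.1-fold, 8.67 to 11.8) and 186 against 114 at day 3 (1.63-fold). Its level depended on how strictly the cells were chosen. With at least 2 UMIs of both SOX17 and FOXA2 required, its log2 ratio was 0.34 at day 2, from 6 UMIs, and -0.98 at day 3, where CER1 was lower than in the other cells. LEFTY1, a target and feedback inhibitor of NODAL signalling, was higher on both days, at 95.6 CPM against 30.5 at day 2 (3.14-fold, 2.17 to 4.40) and 122 against 6.04 at day 3 (20.3-fold, 17.3 to 23.6). At day 3 it was found in 35 of 67 members. FGF17, a streak and endoderm ligand, was 5.90-fold and 3.09-fold higher, and CYP26A1, which breaks down retinoic acid, 3.00-fold and 3.53-fold. KIT, the receptor of stem cell factor, was in 4 members at day 2 (2.65 times, interval 0.859 to 6.22) and in 20 at day 3, where it was 8.99-fold higher.

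The shares of all genes past 2-fold given above, 5.19% higher and 3.06% lower at day 2 and 5.93% and 3.32% at day 3, are the background for the counts of the signalling lists. FGF17 at day 2, and LEFTY1 and FRZB at day 3, reached 10 CPM only through members, so they could be called higher but not lower. Of the NODAL list, 3 of 15 genes tested at day 2 were past 2-fold higher (LEFTY1 and CER1 among them) and 2 of 16 at day 3 (LEFTY1 and the proprotein convertase PCSK6), with SMAD3 lower at day 3, while the ligand itself, NODAL, was 0.62 and 1.05 times the other cells' level. Of the BMP list, 5 of 18 were higher and 1 lower at day 2, and 2 of 18 higher and 1 lower at day 3. BMP4 was the lower one on both days, with 2 UMIs at day 2 (0.18 times, 0.0215 to 0.641) and 165 CPM against 394 at day 3 (2.38-fold lower). BMP7 was 2.20-fold and 2.73-fold higher. BMP2 was 4.93-fold higher at day 2 and 1.43 times at day 3. Of the WNT list, 2 of 17 were higher and 3 lower at day 2, and 4 of 19 were higher and 4 lower at day 3. The secreted WNT inhibitor SFRP1 was higher on both days, 3.74-fold and 8.51-fold, and its relative FRZB was 11.5-fold higher at day 3. LEF1, a mediator of WNT signalling, was 3.08-fold lower and the ligand WNT5A 3.04-fold lower at day 3. DKK4 passed 2-fold at day 2 only through 1 cell, and its ratio without that cell was 0.64. Of the FGF list, 1 of 16 was higher and 1 lower at day 2, and 4 of 15 were higher and 1 lower at day 3, among them FGFR1 (2.27-fold) and the ERK phosphatase DUSP6 (2.28-fold).

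Basement membrane genes were higher in members, in more genes at day 3 than at day 2. Of 15 tested at day 2, 4 were past 2-fold higher and 0 lower. Of 16 tested at day 3, 9 were higher and 0 lower. The medians were 0.66 and 1.21 on the log2 scale, against 0.00 and 0.01 for all genes. Of all genes tested, 5.19% were higher and 3.06% lower at day 2, and 5.93% and 3.32% at day 3. FN1 (chromosome 2, 215360440 to 215436073), which encodes fibronectin, was found in 17 of 19 and 61 of 67 members. Single members ran from 0 to 1438 CPM at day 2 with a median of 154, and from 0 to 4732 at day 3 with a median of 566. The summed level was 332 CPM against 123 at day 2 (2.70-fold, 2.23 to 3.23) and 881 against 164 at day 3 (5.36-fold, 5.08 to 5.64). LAMA1, a laminin chain of early embryonic basement membranes, was 3.78-fold and 3.83-fold higher, and the collagen IV chain COL4A6 4.78-fold and 4.55-fold. COL4A1 was 1.83 times at day 2 and 3.33-fold higher at day 3. The cultures lay under an overlay of basement membrane extract, which members and other cells of a library shared.

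Genes of visceral endoderm and hypoblast, the extraembryonic endoderm, overlap with this picture. Of that list, 4 of 8 tested were higher and 0 lower at day 2 (GATA4, GATA6, BMP2 and LAMA1), against 5.19% of all genes higher. At day 3, 7 of 12 were higher and 2 lower, against 5.93% and 3.32% of all genes. The day 3 genes included HNF4A, a nuclear receptor of liver and visceral endoderm, at 17.4 CPM in 18 members against 0.34 (51.7-fold, 31.6 to 83.1), and the apolipoproteins APOA1 (24.0-fold), APOA2 (4.80-fold) and APOE (2.24-fold). HNF4A had 0 UMIs in members at day 2. At day 3, HNF4A, APOA1, APOA2 and FRZB reached 10 CPM only through members, so they could be called higher but not lower. TTR and VTN, abundant products of liver and visceral endoderm, had 0 UMIs in members on both days and were also below 1 CPM in the other cells, so no difference was detectable at this depth, and AFP was 3.60 CPM at day 3 against 8.24 in the other cells. Several of these genes are also active in definitive endoderm, so the list does not separate the 2 tissues. Node and notochord could not be assessed beyond TBXT, the only gene of that list that reached 10 CPM. TBXT was lower, at 42.2 CPM against 81.1 at day 2 (0.52 times) and 16.8 against 59.0 at day 3 (3.52-fold lower).

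Mesoderm genes were lower in members at day 3. Of 16 mesoderm genes tested, 11 were past 2-fold lower and 0 higher, with a median log2 ratio of -1.34, against 3.32% of all genes lower. MESP1, the bHLH factor of nascent mesoderm, stood at 115 CPM in members and 320 in the other cells (2.78-fold lower). HAND1, a bHLH factor of lateral and extraembryonic mesoderm, stood at 169 and 449 CPM (2.66-fold lower), and the apelin receptor APLNR at 101 and 268. At day 2, 2 of 12 were lower and 3 higher, against 3.06% and 5.19% of all genes, with a median log2 ratio of -0.29. A UMI of MESP1 was nevertheless present in 31 and one of HAND1 in 33 of the 67 day 3 members.

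Those mesoderm UMIs were unevenly spread over the members. When the 67 day 3 members were divided by SOX17 level, a range and not a cell type, the 17 cells of lowest SOX17 level (below 199 CPM) held 325 CPM of HAND1 and the other 50 cells 67.3 CPM. MESP1 was 188 and 67.3 CPM, BMP4 316 and 67.3 CPM, and the cadherin CDH11 325 and 99.9 CPM in these ranges. PRDM1 and CXCR4 were lower in the first range but above the other cells of the library, with PRDM1 at 103 and 202 CPM and CXCR4 at 27.4 and 78.1. FAM184A was 230 and 288 CPM, with overlapping intervals (194 to 269 and 256 to 323), and was above the other cells of the library in both ranges. In the 17 cells GATA6 was 296 CPM against 256 in the other cells of the library, CER1 was 150.5 against 114, and LHX1 was 459 against 657. SOX17 level is SOX17 UMIs over all UMIs of a cell, and SOX17 also chose the cells. The division is thus not independent of depth or of the rule. The 17 cells had a median of 34615 UMIs against 18986. Their scores for doublets, barcodes that hold 2 cells, had a median of 0.142 against 0.0384. The division was made after the single cells had been drawn, 11 cells lay within a factor of the square root of 2 of its boundary, and the part of doublets in it was not tested. Removing the highest-scoring barcodes of the library, 457 in all and 10 of the 67 members, moved the log2 ratio of HAND1 from -1.41 to -1.91. That of CDH11 moved from -1.63 to -2.26. HAND1 and CDH11 were then further below the other cells. Over the definitive endoderm list the median was 1.42 with these barcodes removed.

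**Figure D2:**
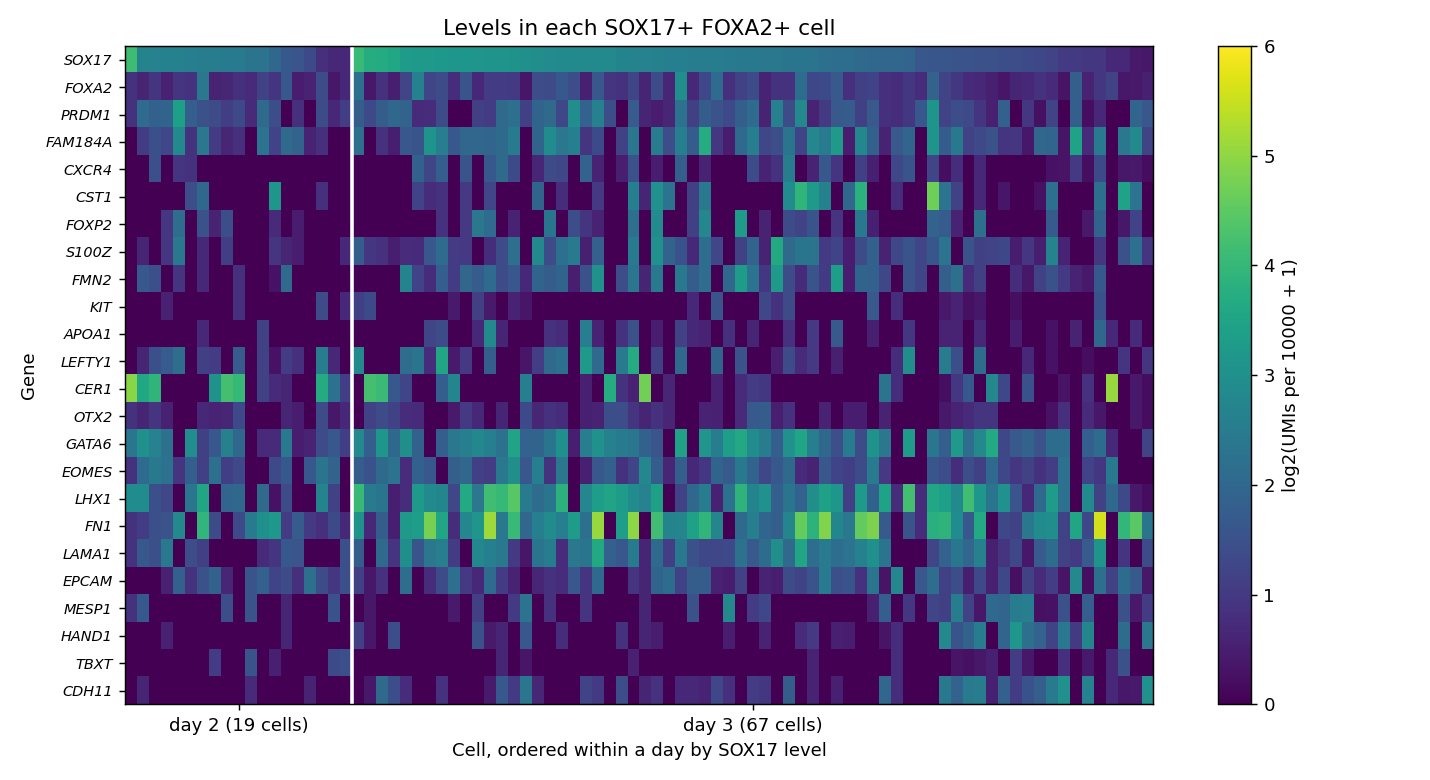
Each column is 1 SOX17+ FOXA2+ cell, ordered within its day by falling SOX17 level, and each row a gene; colour gives log2 of UMIs per 10000 plus 1. PRDM1 and FAM184A run through most cells, CST1 and CER1 are high in some and absent from others, and HAND1, MESP1 and CDH11 are concentrated at the right end of the day 3 cells, where SOX17 is lowest.

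Members differed among themselves in the endoderm genes they carried. With each cell thinned to 5000 UMIs, members carried a median of 5 of the 23 endoderm list genes at day 2 (0 to 9) and 6 at day 3 (1 to 10), against 1 and 3 in the other cells. Of the mesoderm list of 18 genes they carried a median of 1 at day 2 and 2 at day 3, against 1 and 5. Among day 3 members CXCR4 was found in 77.4% of those with a CST1 UMI and in 44.4% of those without. CER1 went the other way, in 32.5% of those with CXCR4 and 63.0% of those without, and 9 of 67 members had both CER1 and CST1. These shares are of few cells of unequal depth and are a description of 1 library.

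Of epithelial and mesenchymal genes, the members' pattern differed by day. At day 2, 5 of 9 mesenchymal genes tested were past 2-fold higher (CDH2, VIM, ZEB1, TWIST1 and FN1) and 2 lower (CDH11 and SNAI1), with a median of 1.43. At day 3, FN1 alone of 12 was higher and 7 were lower, with a median of -1.26. Over all genes, 5.19% were higher and 3.06% lower at day 2, and 5.93% and 3.32% at day 3. CDH2, N-cadherin, was 498 CPM against 163 at day 2 (3.06-fold) and 704 against 380 at day 3 (1.85 times). VIM, vimentin, went from 2.95-fold higher to 0.87 times, and members stood at 563 and then 714 CPM while the other cells stood at 191 and then 816. ZEB1, a repressor of epithelial genes, was 33.8 CPM in members against 5.93 at day 2 and 24.0 against 69.0 at day 3, so that the members' level changed less than that of the other cells. At day 2 ZEB1 reached 10 CPM only through members, so it could be called higher but not lower. SNAI2 was 3.10-fold and ZEB2 3.14-fold lower in members at day 3. Of 13 epithelial genes tested, 0 were higher and 1, GRHL2, lower at day 2, and 3 were higher and 0 lower at day 3. These 3 were EPCAM (135 CPM against 62.7, 2.16-fold), the splicing factor ESRP1 (3.15-fold) and the polarity gene CRB3 (6.61-fold). CDH1, E-cadherin, was 0.66 and 0.67 times the other cells' level and passed 2-fold on neither day.

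**Figure D3:**
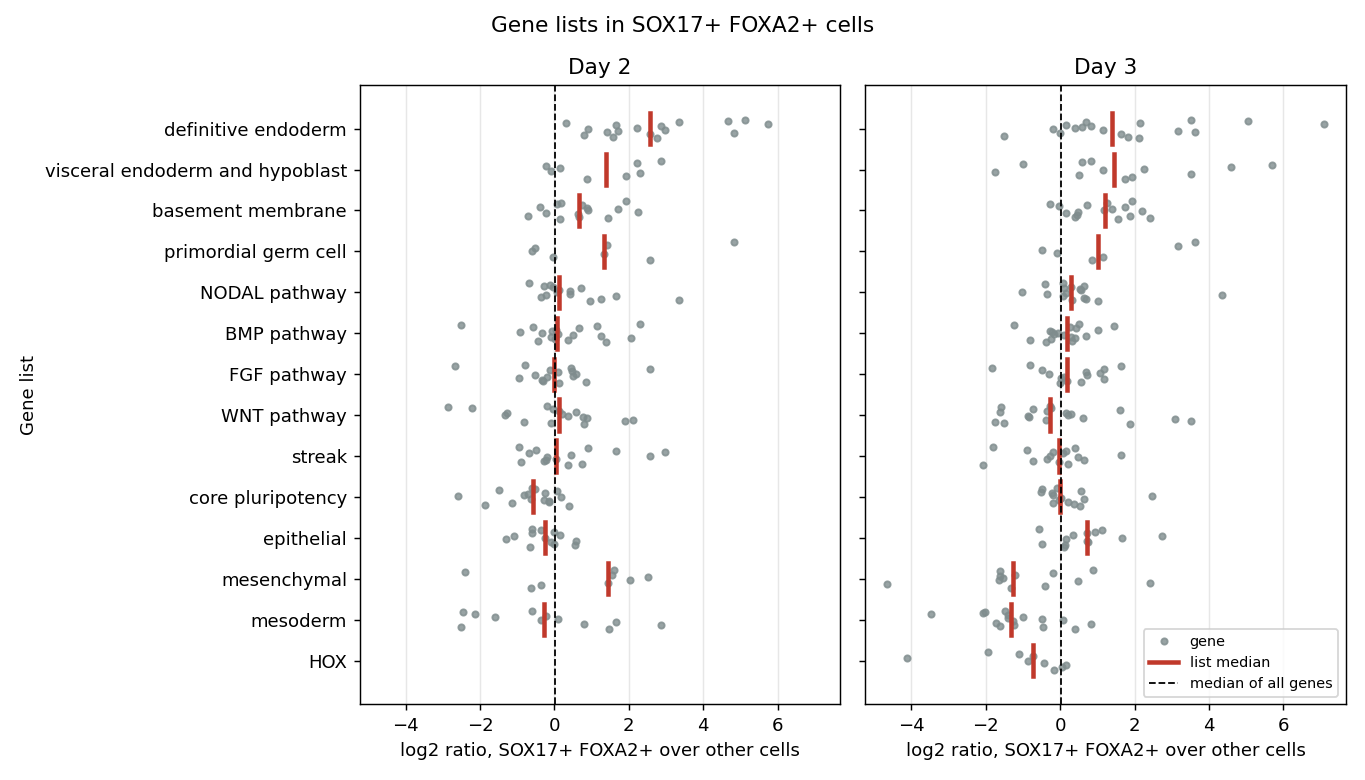
Log2 ratio of SOX17+ FOXA2+ cells over the other cells of their library for each gene (points) of 14 lists, with the list median (red bar) and the median of all genes (dashed line), at day 2 and day 3. The definitive endoderm medians are 2.56 and 1.40, the basement membrane medians 0.66 and 1.21, and the mesenchymal list goes from 1.43 to -1.26; genes under 10 CPM in both classes or with 0 UMIs in members are not drawn.

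Core pluripotency genes were in part lower at day 2 and near the other cells' level at day 3. Of 16 tested at day 2, 4 were lower (SOX2, UTF1, TERF1 and USP44) and 0 higher. SOX2 stood at 28.1 CPM in members and 79.5 in the other cells at day 2, and at 5.39 and 6.62 at day 3. POU5F1 was 683 CPM against 1037 at day 2 and 376 against 402 at day 3, and was found in all 86 members. At day 3, PODXL, which encodes the sialomucin podocalyxin, was the 1 gene past 2-fold of 14, and 5.57-fold higher (330 against 59.2 CPM) after 1.12 times at day 2. Counts for lists of other tissues and states follow. Over all genes, 5.19% were past 2-fold higher and 3.06% lower at day 2, and 5.93% and 3.32% at day 3. In lists this short, 1 gene called already exceeds these shares. Of the hemato-endothelial list 3 genes were tested at day 2 and 2 at day 3, and RUNX1 was higher on both days (7.95-fold and 3.42-fold). CDH5, CLDN5 and ESAM, genes of endothelial junctions, had 2, 2 and 3 UMIs in day 3 members (the ratios had intervals of 3.46 to 222, 1.53 to 61.8 and 1.23 to 19.3). Of the streak list 3 of 15 were higher at day 2, and 1 higher and 2 lower of 15 at day 3. The amnion list had 1 of 4 and 0 of 5 higher, the neural list 1 of 3 and 1 of 2 (OTX2 in both), the retinoic acid list 2 of 6 and 1 of 8, with SOX2 lower at day 2 in the neural and ALDH1A2 lower at day 3 in the retinoic acid list. In the HOX list 3 of 9 genes were lower at day 3 with 0 tested at day 2. Genes of S phase (14 tested), of G2 and M phase (15 tested) and of the integrated stress response (6 and 4 tested) had 0 genes past 2-fold on either day. The dissociation stress list had 1 of 7, FOS, higher at day 3.

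Cells with SOX17 and NANOS3, the pair of genes carried by primordial germ cells, were a further SOX17 class of this culture. At day 3, 129 cells carried both without FOXA2. TFAP2C, a germ cell factor, was 179 CPM in those cells and 9.59 in members, where the interval ran from 5.48 to 15.6. CST1 was 29.4 CPM in the 129 cells and 182 in members, and TBXT was 68.3 and 16.8 CPM in the same order. Of the germ cell list, without SOX17 and NANOS3, 2 of 7 genes tested were past 2-fold higher in members than in all other cells at day 2 (PRDM1 and VENTX), 3 of 6 at day 3 (PRDM1, KIT and ALPL), and 0 were lower. Over all genes, 5.19% were higher at day 2 and 5.93% at day 3. PRDM1 at day 2 and KIT on both days reached 10 CPM only through members, so they could be called higher but not lower. Between members and the 129 cells, PRDM1 (163 CPM in members and 182 in the others) and CXCR4 (58.1 and 68.6 CPM) had overlapping intervals. So did KIT (25.8 and 39.9 CPM), MESP1 (115 and 111 CPM) and HAND1 (169 and 139 CPM), in the same order. Low MESP1 and HAND1 were thus not particular to members, as cells with neither SOX17 nor FOXA2 held 327 and 463 CPM. LEFTY1 was 122 CPM in members, 63.6 in the 129 cells and 4.35 in cells with neither gene. The 5 cells left out for carrying all 3 RNAs held 235 CPM of CST1 (169 to 319), an interval that overlaps with that of members (162 to 204), and 115 CPM of TFAP2C (70.1 to 177).

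In the 258 cells with SOX17 but neither FOXA2 nor NANOS3, CST1 was 26.6, CXCR4 12.3 and PRDM1 58.7 CPM, between members and the 6784 cells without SOX17 or FOXA2 (3.75, 3.38 and 7.45 CPM). Their MESP1 and HAND1, 255 and 309 CPM, were likewise between those of members (115 and 169) and those of cells without either gene (327 and 463). The 18 cells with FOXA2 and no SOX17 held 41.9 CPM of CST1.

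**Figure D4:**
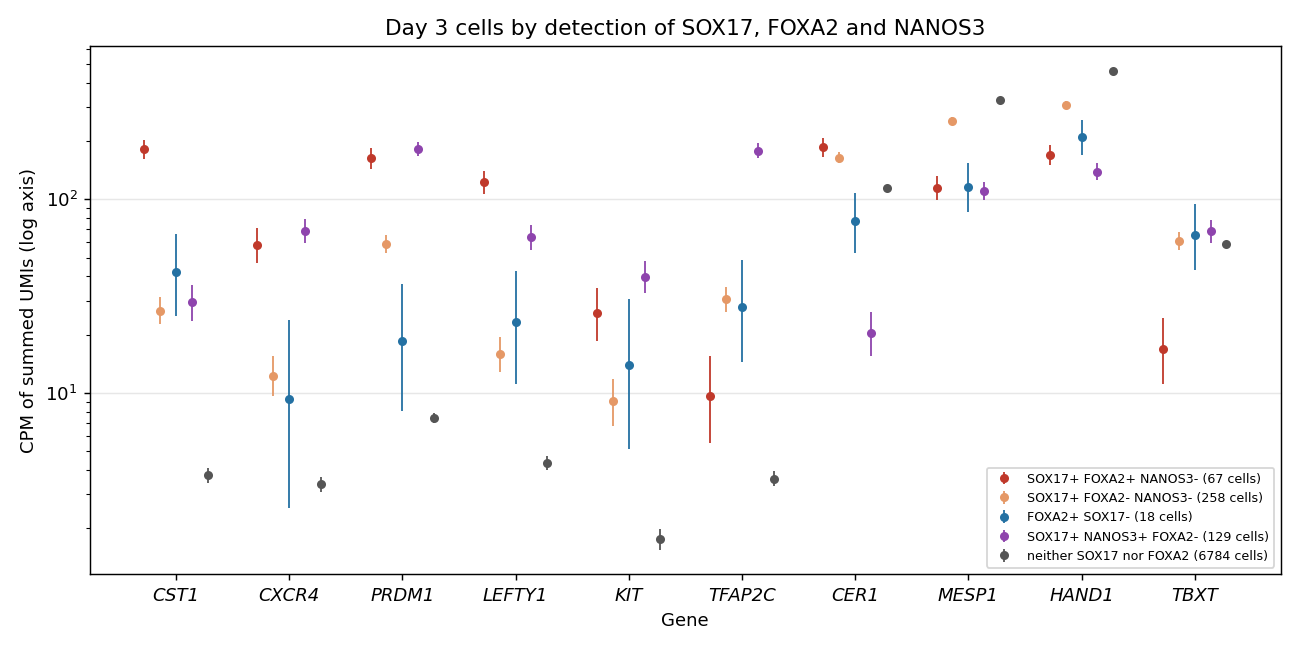
CPM of summed UMIs (log axis, exact Poisson 95% intervals) of 10 genes at day 3 in 5 classes of cells set by detection of SOX17, FOXA2 and NANOS3. Of the classes drawn, CST1 is highest in SOX17+ FOXA2+ cells (red), PRDM1 and CXCR4 are as high in SOX17+ NANOS3+ cells (purple), and TFAP2C is highest in the latter; classes with 0 UMIs of a gene have no point, and the 5 cells with SOX17, FOXA2 and NANOS3 are not drawn.

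Across all genes, 534 of 10295 tested were past 2-fold higher in members at day 2 and 604 of 10180 at day 3, and 315 and 338 were lower. Of 9517 genes tested on both days, 173 (1.82%) were higher on both, which is 32.4% of the genes higher at day 2 and 28.6% of those higher at day 3. A further 58 (0.609%) were lower on both, and 10 were past 2-fold in opposite directions. Of the 315 genes lower at day 2, 42 had 0 UMIs in members. Single cells weighed on the day 2 values. When each gene was taken without the member that held most of its UMIs, 365 of the 534 genes were still at least 2-fold higher, against 490 of 604 at day 3. Scaling the 2 summed profiles by TMM instead of by total gave 437 higher and 445 lower at day 2, and 519 and 407 at day 3. That scaling lowered the median log2 ratio of all genes to -0.10 at day 2 and to -0.08 at day 3.

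The genes furthest from the other cells on both days included several without a usual place among endoderm markers. FAM184A (chromosome 6, 118959763 to 119149387), a coiled-coil protein gene, was in 15 of 19 and 61 of 67 members. Its median in single members was 105 CPM at day 2 and 243 at day 3, and its summed level was 149 CPM against 11.1 (13.4-fold, 10.0 to 17.7) and 265 against 8.65 (30.6-fold, 27.4 to 34.1). S100Z, a calcium-binding protein gene, was 10.3-fold and 34.2-fold higher, and was found in 57 of 67 members at day 3. FMN2, which encodes the actin nucleator formin 2, was 8.76-fold and 33.4-fold higher. FOXP2, a forkhead factor, was 24.4-fold and 57.8-fold higher but was found in 7 and 30 members. BMP6, a BMP ligand, was 28.1 CPM against 2.56 at day 2, from 10 UMIs, and 46.1 CPM against 0.92 at day 3. CLVS2, STMN2, GALNT18, GPX2, GPR39, TMEM150C and the noncoding gene AC020584.1 were 7.80-fold to 29.7-fold higher at day 2 and 7.90-fold to 47.3-fold at day 3. The other cells include cells with SOX17, FOXA2 or NANOS3 that were not members. With these left out, the day 3 log2 ratio went from 3.76 to 5.38 for GPX2 and from 5.21 to 5.82 for CLVS2.

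The 10 genes furthest below the other cells on both days were THSD7A, NKAIN2, UNC5C, ACTC1, HAPLN1, CDH11, WNT5A, CABLES1, PPARGC1B and the noncoding gene AC009055.1. Their day 2 values rest on 1 to 6 UMIs in members. HAPLN1, a linker protein of hyaluronan matrix, stood at 162 CPM against 569 at day 3, a ratio of 0.28 (0.25 to 0.32), and at 3 UMIs and a ratio of 0.22 (0.05 to 0.65) at day 2. CDH11 was 189 CPM against 584 at day 3, and UNC5C, a netrin receptor, 83.3 against 375.

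**Figure D5:**
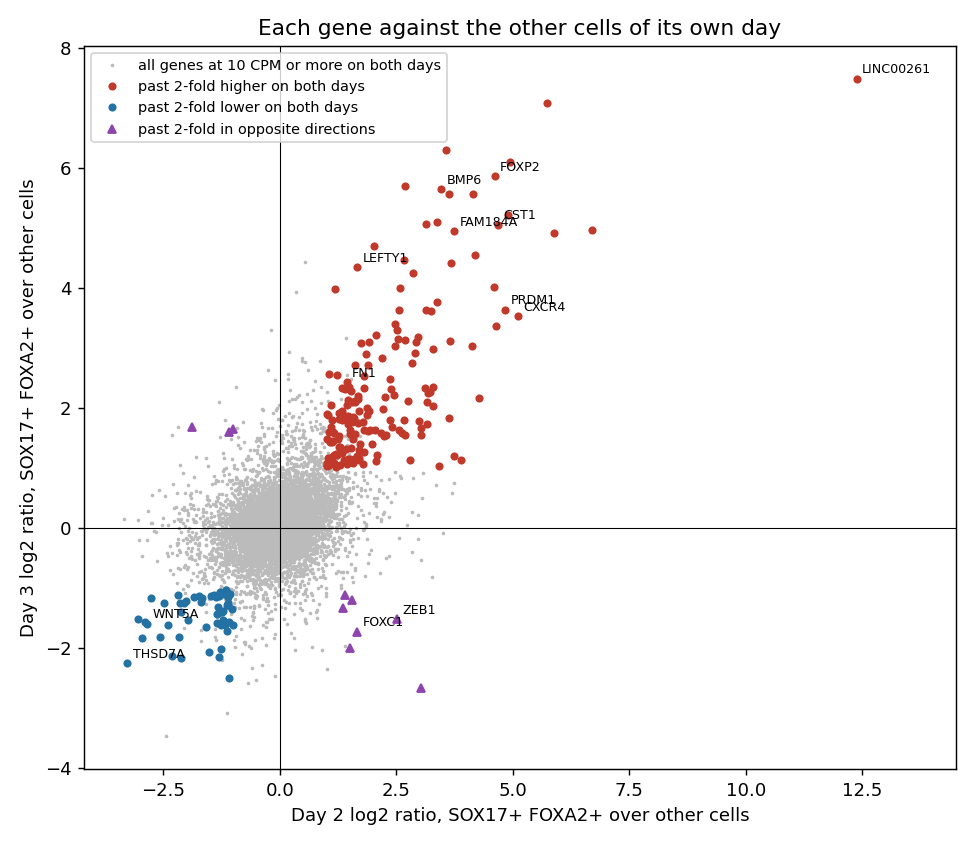
Each point is a gene tested on both days, placed by its log2 ratio of SOX17+ FOXA2+ cells over the other cells at day 2 (x axis) and day 3 (y axis). Red and blue points are the 173 and 58 genes past 2-fold higher or lower on both days, and purple triangles the 10 in opposite directions, ZEB1 and FOXC1 among them; genes with 0 UMIs in members are not drawn.

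The gene furthest apart from the other cells was LINC00261, a long noncoding RNA that lies beside FOXA2. It had 14 UMIs in members and 1 in the other cells at day 2, a ratio of 5335 with an interval of 812 to 225582, and 55 against 28 UMIs at day 3, a ratio of 179 (111 to 292). It spans 22547663 to 22578642 of chromosome 20 on the minus strand and begins 2355 bases beyond the end of FOXA2 (22580998 to 22585455), which is on the same strand. Reads that run past the end of FOXA2 would fall in the gap or, if longer, in LINC00261, so its value is not clearly independent of the rule. Its promoter is shown because it was the only one of the matched genes to hold both motifs searched. The search covered the 250 bases before the start of each gene in RefSeq (GRCh38.p14), on both strands, for TGTTTAC (reverse GTAAACA), a form of the forkhead motif, and for ACAATG (reverse CATTGT), a form of the SOX motif. RefSeq promoters were matched for 113 of the 173 genes higher on both days. The promoter of GPX2, a glutathione peroxidase gene of gut epithelium, is shown beside it as one that holds the SOX letters at the same distance. Capitals mark the matches, 237 and 92 bases before the start in LINC00261 and 92 bases before it in GPX2.
LINC00261, chr20:22578643-22578892, minus strand: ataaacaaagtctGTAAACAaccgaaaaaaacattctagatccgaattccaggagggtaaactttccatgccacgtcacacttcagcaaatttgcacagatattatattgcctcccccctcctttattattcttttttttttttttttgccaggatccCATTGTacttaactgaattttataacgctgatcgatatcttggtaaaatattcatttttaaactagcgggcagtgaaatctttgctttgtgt
GPX2, chr14:64942746-64942995, minus strand: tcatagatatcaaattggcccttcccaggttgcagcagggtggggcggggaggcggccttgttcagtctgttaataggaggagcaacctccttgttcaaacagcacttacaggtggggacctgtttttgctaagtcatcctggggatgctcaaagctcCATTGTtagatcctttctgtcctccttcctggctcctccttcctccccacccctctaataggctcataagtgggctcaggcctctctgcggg

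The forkhead letters were found in 1 of the 113 matched promoters (0.885%), that of LINC00261, and in 813 of all 27305 promoters (2.98%). The SOX letters were found in 9 of 113 (7.96%) and in 2579 of 27305 (9.45%). The 9 were those of CDH12, FMN2, FOXP2, GPX2, LINC00261, SHISA3, SLC44A5, SP8 and SSBP3. Neither share was above that of all promoters. A match of letters in this window is a description and says nothing of whether a factor binds there.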

How the data were processed

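Cells of UCLA1 were profiled at days 1, 2 and 3 with the 10x Genomics platform, 1 library per day. The authors deposited 1 matrix of raw UMI counts per library (36601 genes) from Cell Ranger 5.0.1 and hg38, per the submitters' processing notes, with no normalisation. The 3 matrices held 4889, 10580 and 7860 barcodes. Kept cells had 1000 genes or more and no more than 20% mitochondrial UMIs, which left 3677, 7892 and 7261 cells with 174216674, 135839495 and 153405850 UMIs. UMIs were summed over members and over the other cells of a library, divided by the total to give CPM, and compared by ratio. CPM have exact Poisson, ratios exact conditional binomial and shares exact Clopper-Pearson binomial 95% intervals, which cover counting error only. A count of 0 was read as allowing 3 counts. SOX17, FOXA2 and NANOS3 were left out of all counts of genes. For shares of cells and genes per cell where stated, cells were thinned to 5000 UMIs and shallower cells left out.

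Genes were named from 23 lists, and as the 15 highest and 10 lowest by the less extreme of the 2 days' log2 ratios among genes of at least 20 CPM in the higher class on both days. Members, lists and rules were chosen with earlier results of these data known. Doublets were kept in the main values. The Scrublet routine of scanpy 1.11.5 marked 1 cell per library by its own threshold at days 2 and 3 and so did not work here. Instead, an alternative removed the highest scores at 0.8% per 1000 barcodes, 668 cells at day 2 (3 members) and 457 at day 3 (10 members). Other alternatives were a minimum of 2 UMIs of SOX17 and FOXA2, 2000 genes, 10% mitochondrial UMIs, other cells of matched depth or without SOX17, FOXA2 and NANOS3, equal weight per cell, TMM scaling (edgeR 4.0.16), median-of-ratios scaling (DESeq2 1.42.0) and no minimum CPM. Leaving out the member of most UMIs, leaving out each gene's top cell, and the division of members by SOX17 level were added after the data had been seen. The counting was tested on simulated data. Positions of genes come from GENCODE 44 (hg38) and promoters from RefSeq. Some genes of the lists are not reported by name here, though the counts and medians of their lists include them.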

Additional observations from a re-analysis of the deposited data

Results flagged for a closer look

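Day 1 had no member and entered no comparison above, yet 1.01% of its kept cells had a SOX17 UMI and 0.218% a FOXA2 UMI, 37 and 8 cells of 3677, above the limit that a count of 0 allows. None of them carried both. The day 1 cells were the deepest of the series in UMIs per cell, and these shares are not corrected for depth.

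ZEB1 and FOXC1 were past 2-fold in opposite directions on the 2 days. The log2 ratio of ZEB1 was 2.51 at day 2, from 12 UMIs in 9 members, and -1.53 at day 3, from 40 UMIs in 26 members. That of FOXC1, a forkhead factor of paraxial and cardiac mesoderm, was 1.66 at day 2, from 9 UMIs in 6 members, and -1.74 at day 3, from 21 UMIs in 15. The difference between the days was not tested, since each day is 1 library.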

How the results depend on the processing

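Requiring at least 2 UMIs of SOX17 and of FOXA2 changed most: the share of members became 0.0507% at day 2 and 0.634% at day 3, genes lower at day 2 became 158, and the endoderm list median at day 2 became 1.47, all at day 2 from 4 cells. Under it BMPER (-0.44, from 2 UMIs) and GSC (-0.18, from 1 UMI) turned to negative log2 ratios at day 2. Weighting each cell equally gave 608 genes lower at day 2. With no minimum CPM, 1199 genes were higher and 588 lower at day 3. Over all alternatives the endoderm list median ran from 1.47 to 2.76 at day 2 and from 1.16 to 1.53 at day 3. Higher genes were 62.9% of those past 2-fold at day 2, and 49.5% with TMM, 51.7% with median-of-ratios, 45.0% with equal weight per cell and 81.7% with the 2-UMI rule. At day 3 they were 64.1%, and 56.0% with TMM. The streak list median at day 2 went from 0.04 to -0.06 with TMM, and that of the BMP list from 0.07 to -0.03. Of single genes, 2068 values under an alternative stayed within their interval and 135 moved outside it. A further 2, of genes past 2-fold in the main values, changed sign. Sign changes of genes not past 2-fold were counted with the values that stayed or moved. At day 3 the 2-UMI rule took the log2 ratio of CER1 from 0.71 to -0.98 and that of DKK4 from 0.62 to -3.11, from 1 UMI. CST1 at day 2 had a log2 ratio of 4.67 and of 2.58 with the highest doublet scores removed, since the cell that held most of it was among them. The cause of the other shifts was not tested. With 19 and 67 members, genes of few UMIs are limited by counting error. No paired analysis was possible because there was 1 library per day and the labels carry no replicate numbers.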

Other observations

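Outside the lists, several genes were past 2-fold higher in members at day 3 and not at day 2, picked after their values had been seen. PEG10, an imprinted gene derived from a retrotransposon, was 890 CPM against 130 (6.83-fold) at day 3 and 1.81 times at day 2. STC1, which encodes the secreted glycoprotein stanniocalcin 1, was 116 CPM against 6.35 (18.2-fold) and had 0 UMIs in members at day 2. S100A16, a calcium-binding protein gene, was 15.2-fold higher and TDO2, the liver enzyme of tryptophan breakdown, 32.7-fold, from 23 UMIs. The GTPase gene RAB17 was 6.82-fold higher and the protease gene TMPRSS2 18.8-fold, from 24 UMIs. PORCN, which encodes the acyltransferase that modifies WNT ligands, was 9.16-fold higher at 22.8 CPM. At day 2, with 19 members, PORCN and TDO2 had 0 UMIs in members, and a difference between the days was not tested.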
